A study of Mus musculus with 12 samples.

Results

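The genes followed here are 10 genes of the contractile apparatus in the mouse ileum: the 4 muscle actins (Acta1, Acta2, Actg2 and Actc1), 5 further genes of smooth muscle (Myh11, Tagln, Cnn1, Des and Lmod1) and Myot. They were chosen by symbol among the 54838 genes of the count table, with earlier results of these data known. The fold changes of Acta1 and Myot in these libraries were among those results. Levels, fold changes and calls of Acta1 and Myot are therefore given as a description, with no p-value, and nothing is supported with them. The p-values of the other genes are not independent of the choice either. All 10 passed the filter on low counts, which left 15938 genes for testing.

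The libraries came from whole ileum of C57BL/6J mice, 3 mice in each of 4 groups, and the labels name no genetic change. All mice drank for 7 days, either normal water or water with 25 mM ZnSO4, and were then injected once. The injection held 200 µg dexamethasone (Dex, a synthetic glucocorticoid) in PBS or PBS alone, and the tissue was taken 2 h later. The groups are named water + PBS, water + Dex, ZnSO4 + PBS and ZnSO4 + Dex, and the labels give neither age nor sex.

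Actin filaments are pulled by myosin in every muscle, and vertebrates use a separate actin gene for each muscle type. Acta1 is the main actin of adult skeletal muscle and Actc1 that of the heart, whereas Acta2 is known from vascular smooth muscle and Actg2 from the smooth muscle of the gut. The wall of the ileum holds inner circular and outer longitudinal layers of smooth muscle beneath the mucosa, and these cells are the usual source of Acta2, Actg2, Myh11, Tagln, Cnn1, Des and Lmod1 in such tissue. Myot encodes myotilin, a protein of the Z-disc, the structure that anchors actin filaments in striated muscle. Transcription of many of these genes is driven by serum response factor (SRF), which binds the CArG box, a run of A and T bases between CC and GG. In bulk tissue, fewer cells of a type and less RNA per cell cannot be told apart.

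The 4 muscle actins have similar coding sequences, and the start of each is shown to make clear how the reads of one gene are told from those of another. The first 60 coding bases below are from GENCODE transcripts of GRCm38, and capitals mark bases that differ from, or have no partner in, the Acta1 sequence after alignment.
Acta1 coding start: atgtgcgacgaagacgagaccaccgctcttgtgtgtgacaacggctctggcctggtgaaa
Actc1 coding start: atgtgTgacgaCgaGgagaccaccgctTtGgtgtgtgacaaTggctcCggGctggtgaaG
Acta2 coding start: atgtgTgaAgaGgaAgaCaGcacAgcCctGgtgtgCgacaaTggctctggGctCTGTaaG
Actg2 coding start: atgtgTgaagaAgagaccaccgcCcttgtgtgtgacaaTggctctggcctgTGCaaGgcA
Over the whole coding sequence of 1134 bases, Acta1 was identical to Actc1 at 86.2% of aligned bases, to Acta2 at 85.4% and to Actg2 at 85.1%. Of the 50-base stretches of the Acta1 transcripts, 2.02% also occurred in another gene, mainly Actb and actin pseudogenes, and for Acta2, Actg2 and Actc1 this share was at most 0.326%. Reads with more than 1 mapping position had been excluded by the authors.

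The sequences upstream of Acta1 and Actc1 are shown because the levels of these actins differed between the groups in opposite directions while both held a CArG box, given in capitals, in the 250 bases before the RefSeq start. They were taken from RefSeq on GRCm38.p6, on the minus strand, at chr8:123894776-123895025 for Acta1 and chr2:114052876-114053125 for Actc1.
Acta1 upstream: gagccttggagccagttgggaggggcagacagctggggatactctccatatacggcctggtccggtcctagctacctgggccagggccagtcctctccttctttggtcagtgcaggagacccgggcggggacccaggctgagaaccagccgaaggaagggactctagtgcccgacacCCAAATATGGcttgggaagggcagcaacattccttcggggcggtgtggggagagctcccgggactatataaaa
Actc1 upstream: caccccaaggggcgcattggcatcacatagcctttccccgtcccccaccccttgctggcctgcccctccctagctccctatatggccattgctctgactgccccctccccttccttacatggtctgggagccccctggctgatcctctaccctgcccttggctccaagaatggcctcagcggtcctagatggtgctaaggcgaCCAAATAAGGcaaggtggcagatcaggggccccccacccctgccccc
The box lay 73 to 64 bases before the RefSeq start in Acta1 and 47 to 38 bases before it in Actc1. GENCODE has other outermost starts, at 123894751 for Acta1 and 114053548 for Actc1, so these distances hold for RefSeq only. By GENCODE the Actc1 window lies within the annotated gene, with 12 of its bases in an exon. The table of promoters held 6 of the 10 genes (Acta1, Acta2, Actc1, Cnn1, Des and Lmod1), and 2 of these 6 had a box in the window, as did 1.47% of all 32851 windows of this length. In the Acta2 window 217 of the 250 bases, and in the Cnn1 window 37, lie in an annotated GENCODE exon, so the missing box says little about the sequence upstream of Acta2. A half-site pair of the glucocorticoid receptor, ACANNNTGT, was found in none of the 6 and in 5.84% of all windows. The zinc response motif, TGCACNC or TGCGCNC on either strand, was found in Actc1, 241 to 235 bases before the start, in Des, 120 to 114 bases before it, and in 21.4% of all windows. These are matches of letters in a short window and were not tested for binding.

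Total counts per library lay between 10760132 and 11827487. The treatments were read out by genes known to respond: all 7 glucocorticoid-induced genes examined, Fkbp5 among them, were called higher after Dex in water-drinking and in ZnSO4-drinking mice. The metallothioneins Mt1 and Mt2 and the transporter Slc30a2 were called higher and the zinc importer Slc39a4 lower after ZnSO4 in PBS-injected and in Dex-injected mice. The ileal bile acid binding protein Fabp6 was measured at 3575 to 7789 CPM (counts per 1000000 reads) and the enterocyte fatty acid binding protein Fabp2 at 1504 to 5092 CPM, which are defining markers of the labelled tissue (Fabp6 was named after its values were seen). Calls were made with edgeR's quasi-likelihood test over all 15938 tested genes, and a called gene had a log2 fold change (LFC) above 0.8 in size and a p under 0.05 after Benjamini-Hochberg adjustment.

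Of the 10 genes, Acta1 and Myot were called lower and Actc1 higher in ZnSO4 + PBS compared with water + PBS. Over all tested genes, 0.747% were called higher and 0.954% lower in this comparison. After Dex in water-drinking mice, Myot was called higher, against 2.79% of all genes higher and 1.64% lower. After Dex in ZnSO4-drinking mice it was again the called gene, and it was higher, against 3.41% higher and 2.4% lower. Between ZnSO4 + Dex and water + Dex, Acta1 was called lower, against 0.696% of genes higher and 1.2% lower. Between ZnSO4 + Dex and water + PBS, Acta1 was called lower and Myot and Actc1 higher, against 5.1% of genes higher and 4.56% lower. None of the 7 smooth muscle genes was called in any of the 5 comparisons. Since Acta1 and Myot were singled out from these contrasts, nothing is read from the counts.

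**Figure D1:**
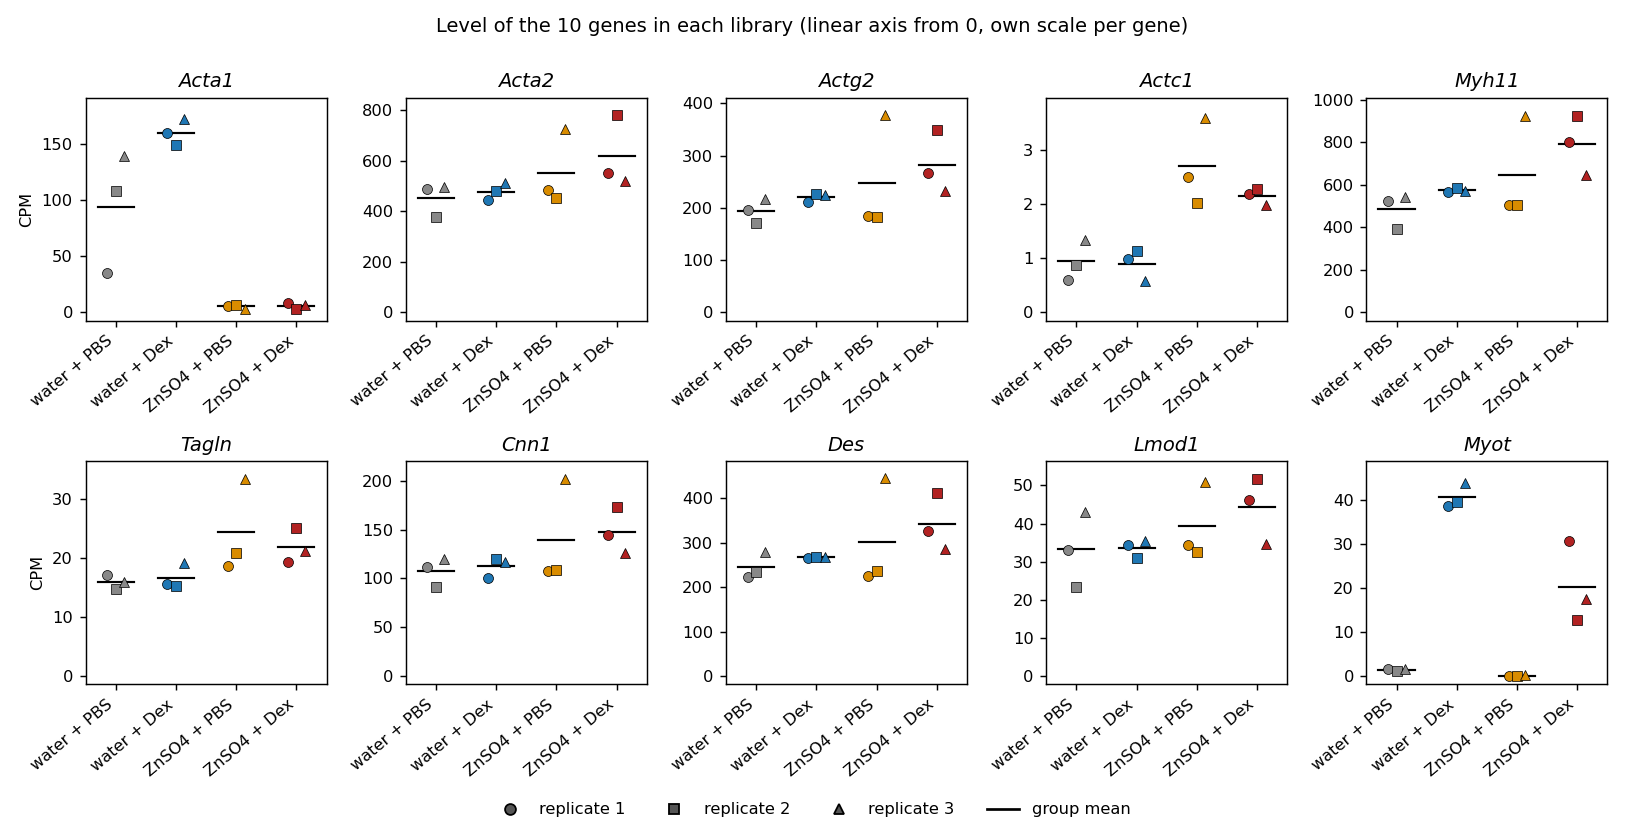
CPM (vertical axis, linear from 0, its own scale for each gene) of the 10 genes in the 12 libraries, by group, with 1 symbol per replicate number and a bar at the group mean. Acta1 lies between 2.79 and 8.11 CPM in the 6 libraries of ZnSO4-drinking mice, Myot lies above 12 CPM only after Dex, and the smooth muscle genes are highest in ZnSO4 + PBS replicate 3 or ZnSO4 + Dex replicate 2.

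Acta1 (ENSMUSG00000031972, GRCm38 chr8:123891769-123894751, minus strand), the skeletal muscle actin, was abundant in water-drinking mice and low in ZnSO4-drinking mice. Its levels in water + PBS were 34.8, 108 and 139 CPM, and in water + Dex 160, 149 and 172 CPM. In ZnSO4 + PBS they were 6.13, 6.92 and 3.34 CPM, and in ZnSO4 + Dex 8.11, 2.79 and 6.85 CPM. The 6 values of ZnSO4-drinking mice did not overlap with the 6 of water-drinking mice, and the lowest water value, replicate 1 of water + PBS, stood apart from the others of its group. The group means were 94.2 ± 53.7, 160 ± 11.4, 5.46 ± 1.88 and 5.92 ± 2.78 CPM in the same order (SD, n = 3). The depth behind them was 33 to 89 reads per library in ZnSO4-drinking mice and 407 to 1812 in water-drinking mice.

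The fitted LFC of Acta1 was -4.10 ± 0.50 (SE) for ZnSO4 in PBS mice, which is 17.2-fold lower, and -4.77 ± 0.51 for ZnSO4 in Dex mice, which is 27.2-fold lower. In each of these comparisons it held rank 8 from the lowest among the 15938 tested genes. For Dex the LFC was 0.77 ± 0.42 in water-drinking mice, where the 3 Dex values all lay above the 3 PBS values, and 0.11 ± 0.54 in ZnSO4-drinking mice, where the groups overlapped. Without replicate 1 of water + PBS the ZnSO4 difference in PBS mice grew to -4.48 and the Dex difference in water-drinking mice shrank to 0.37.

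Myot (ENSMUSG00000024471, GRCm38 chr18:44334074-44355724, plus strand), the gene of the Z-disc protein myotilin, was high after Dex and nearly absent in ZnSO4 + PBS. In water + PBS it was at 1.62, 1.15 and 1.67 CPM, and in water + Dex at 38.7, 39.7 and 43.9 CPM. In ZnSO4 + PBS only 1, 0 and 2 reads were counted, which are 0.0829, 0 and 0.163 CPM, and in ZnSO4 + Dex the levels were 30.7, 12.7 and 17.6 CPM. The groups did not overlap in any pair: both Dex groups lay above both PBS groups, and within each injection the ZnSO4-drinking mice lay below the water-drinking mice. A count of 0 allows up to 3 reads, which is 0.241 CPM in that library.

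The LFC of Myot for Dex was 4.77 ± 0.35 (SE) in water-drinking mice, rank 14 from the highest of 15938 genes, and 7.78 ± 0.51 in ZnSO4-drinking mice, rank 2. The latter rests on 3 reads in the reference group and depends on the prior count. As a ratio of summed reads scaled by library size, 674 against 3, the level was 247-fold higher, with an exact 95% interval for Poisson counts of 84.1 to 1200.3. For ZnSO4 in PBS mice, 52 reads against 3 gave 18.2-fold lower, with an interval of 5.90 to 91.2. Both intervals cover counting error only. For ZnSO4 in Dex mice, where depth was ample, Myot was 2.01-fold lower (LFC -1.01 ± 0.28).

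Whether the effect of ZnSO4 differed between PBS-injected and Dex-injected mice was tested by the interaction over all genes. It was 0% of 15938 genes that passed an adjusted p under 0.05 in edgeR, with 794 genes at an unadjusted p under 0.05, 1 of them among the 10. DESeq2 passed 6 genes, none of them among the 10. The lowest adjusted p of any gene in edgeR was 0.952. No difference between the LFC values of Myot in the separate comparisons is read from them.

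Actc1 (ENSMUSG00000068614, GRCm38 chr2:114047282-114053548, minus strand), the cardiac actin, was low throughout but higher in ZnSO4-drinking mice. It was counted 7, 10 and 16 times in water + PBS and 10, 12 and 6 times in water + Dex. In ZnSO4 + PBS it was counted 30, 25 and 44 times and in ZnSO4 + Dex 24, 27 and 21 times. All 6 values of ZnSO4-drinking mice, 1.97 to 3.58 CPM, lay above all 6 of water-drinking mice, 0.57 to 1.34 CPM. The LFC was 1.51 ± 0.33 (SE) for ZnSO4 in PBS mice (adjusted p = 0.0279), 1.25 ± 0.35 for ZnSO4 in Dex mice (adjusted p = 0.0692) and 1.18 ± 0.34 for ZnSO4 + Dex against water + PBS (adjusted p = 0.0272). The call in PBS mice was lost without water + PBS replicate 1 or 2 or ZnSO4 + PBS replicate 1 or 3, with an LFC of 1.25 to 1.56 and an adjusted p of 0.0696 to 0.114. The call for ZnSO4 + Dex against water + PBS was lost without water + PBS replicate 1 or 2 or ZnSO4 + Dex replicate 1 or 2, with an LFC of 0.94 to 1.17 and an adjusted p of 0.0672 to 0.0887. With the mean smooth muscle level as a covariate both were lost, at an LFC of 1.25 (adjusted p = 0.0793) and 0.83 (adjusted p = 0.181). For Dex the LFC was -0.07 ± 0.38 in water-drinking and -0.32 ± 0.31 in ZnSO4-drinking mice, and its groups overlapped.

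**Figure D2:**
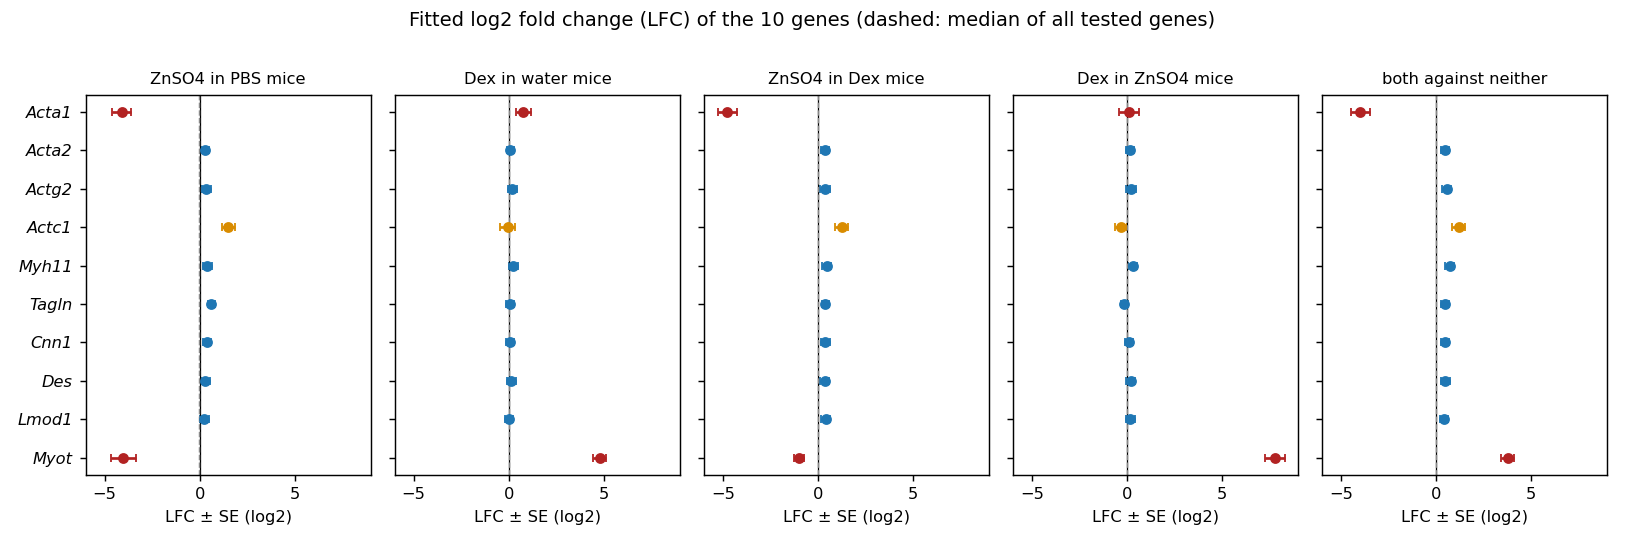
LFC with its SE (horizontal axis, log2) of the 10 genes in the 5 comparisons. Acta1 and Myot are in red, Actc1 is in orange and the smooth muscle genes are in blue, and the dashed line is the median of all tested genes. The smooth muscle genes lie between -0.15 and 0.70 in every panel, whereas Acta1 reaches -4.77 and Myot 7.78.

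Acta2 (ENSMUSG00000035783, chr19:34241090-34255590, minus strand) and Actg2 (ENSMUSG00000059430, chr6:83512905-83536265, minus strand), the smooth muscle actins, followed neither Acta1 nor Myot. Acta2 was measured at 488, 378 and 496 CPM in water + PBS, at 444, 480 and 511 CPM in water + Dex, at 484, 451 and 724 CPM in ZnSO4 + PBS and at 554, 782 and 522 CPM in ZnSO4 + Dex. Actg2 stood at 195, 172 and 216 CPM in water + PBS, at 212, 226 and 225 CPM in water + Dex, at 183, 182 and 377 CPM in ZnSO4 + PBS and at 267, 349 and 232 CPM in ZnSO4 + Dex. The highest values of both genes came from ZnSO4 + PBS replicate 3 and ZnSO4 + Dex replicate 2, while the other libraries of ZnSO4 + PBS lay within or beside the range of water + PBS. The LFC for ZnSO4 in PBS mice was 0.29 ± 0.20 (SE) for Acta2 (adjusted p = 0.469) and 0.35 ± 0.25 for Actg2 (adjusted p = 0.486). For ZnSO4 in Dex mice it was 0.37 ± 0.20 (adjusted p = 0.343) and 0.36 ± 0.25 (adjusted p = 0.487). For ZnSO4 + Dex against water + PBS it was 0.45 ± 0.20 (adjusted p = 0.127) and 0.54 ± 0.25 (adjusted p = 0.142). In these last comparisons the groups did not overlap for either gene.

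Myh11 (ENSMUSG00000018830, chr16:14194535-14291372, minus strand) encodes the smooth muscle myosin heavy chain, the motor that pulls on these actins. It was at 525, 391 and 545 CPM in water + PBS, at 569, 586 and 570 CPM in water + Dex, at 505, 505 and 927 CPM in ZnSO4 + PBS and at 803, 925 and 649 CPM in ZnSO4 + Dex. Every ZnSO4 + Dex value lay above every water value, as was also so for Acta2, Actg2, Cnn1, Des and Tagln, but not for Lmod1. How often all genes separate in this way was not counted. For ZnSO4 + Dex against water + PBS the LFC of Myh11, 0.70 ± 0.23 (SE), had an adjusted p of 0.0445, under the cut-off on size. Myh11 was the sole smooth muscle gene of the 7 with an adjusted p under 0.05 in any comparison, and over the left-out libraries its LFC ranged from 0.56 without water + PBS replicate 2 (adjusted p = 0.151) to 0.83 without ZnSO4 + Dex replicate 3 (adjusted p = 0.0373).

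Des (ENSMUSG00000026208, chr1:75360329-75368579, plus strand) encodes desmin, the intermediate filament of muscle, Cnn1 (ENSMUSG00000001349, chr9:22099216-22109630, plus strand) calponin, an actin-binding protein of smooth muscle, and Lmod1 (ENSMUSG00000048096, chr1:135324807-135368065, plus strand) leiomodin, a nucleator of actin filaments. Des ranged from 224 to 279 CPM in water + PBS, 266 to 269 in water + Dex, 225 to 445 in ZnSO4 + PBS and 285 to 413 in ZnSO4 + Dex. Cnn1 ranged from 91.0 to 120 CPM in water + PBS and from 126 to 173 CPM in ZnSO4 + Dex, and Lmod1 from 23.5 to 43.0 and from 34.7 to 51.7 CPM. All 3 genes had their highest value in ZnSO4 + PBS replicate 3 or ZnSO4 + Dex replicate 2. Their LFC for ZnSO4 + Dex against water + PBS was 0.47 ± 0.23 (Des, adjusted p = 0.16), 0.46 ± 0.22 (Cnn1, adjusted p = 0.159) and 0.41 ± 0.23 (Lmod1, adjusted p = 0.213), with the SE after each value.

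Tagln (ENSMUSG00000032085, chr9:45929619-45936058, minus strand) encodes transgelin, an actin-binding protein of smooth muscle. Its level was 14.8 to 17.2 CPM in water + PBS, 15.4 to 19.2 in water + Dex, 18.7 to 33.5 in ZnSO4 + PBS and 19.4 to 25.2 in ZnSO4 + Dex. Of its exonic bases, 67.9% overlap with Gm48529 and Pcsk7 on the opposite strand, and the strand setting used for counting is not given in the sources used here, so its level and fold change are uncertain. The ZnSO4 + PBS values all lay above those of water + PBS, with an LFC of 0.61 ± 0.20 (SE; adjusted p = 0.109). Of Des, 5.86% of exonic bases overlap with Gm15179 on the opposite strand, and the other 8 genes had no such overlap.

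The levels of different genes were compared per kilobase of exonic length. In water + PBS, Acta2 was highest at 207 ± 30.1 CPM per kb (SD, n = 3), followed by Actg2 at 125 ± 14.2, and Des at 65.5 ± 7.85, Myh11 at 64.1 ± 11.02 and Acta1 at 61.3 ± 34.9 did not differ beyond their spread. Cnn1 came next at 39.3 ± 5.41 CPM per kb, Lmod1 at 8.41 ± 2.48 and Tagln at 8.04 ± 0.596 were alike within their spread, and so were Myot at 0.670 ± 0.131 and Actc1 at 0.580 ± 0.230. The place of Tagln is uncertain, since reads from its overlap with genes on the opposite strand may not have been counted. In ZnSO4 + Dex the order of the smooth muscle actins was kept, with Acta2 at 282 ± 64.6 and Actg2 at 182 ± 38.6 CPM per kb. Acta1 there stood at 3.85 ± 1.81 CPM per kb, below Myot at 9.19 ± 4.23 and above Actc1 at 1.33 ± 0.0979.

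**Figure D3:**
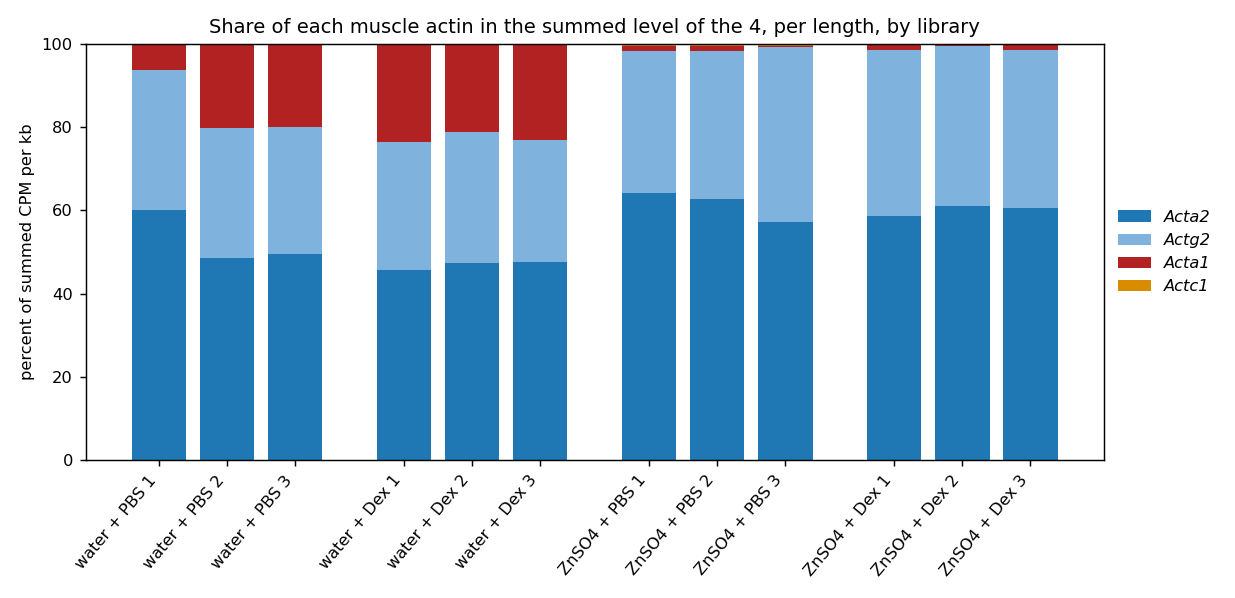
Share of each of the 4 muscle actins in their summed CPM per kb (vertical axis, percent, from 0 to 100), 1 stacked bar for each of the 12 libraries. Acta1, in red, takes 6.12% to 23.5% in water-drinking mice and at most 1.37% in ZnSO4-drinking mice, and Actc1 is too small to be seen.

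Expressed as a share of the 4 muscle actins per length, Acta1 made up 6.12%, 19.98% and 19.9% in water + PBS and 23.5%, 21.1% and 22.9% in water + Dex. It was 1.16%, 1.37% and 0.377% in ZnSO4 + PBS and 1.23%, 0.311% and 1.14% in ZnSO4 + Dex. The share in the 6 ZnSO4-drinking mice lay below that in the 6 water-drinking mice with no overlap. Actc1 contributed at most 0.447% in any library.

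The cytoplasmic actins Actb and Actg1, present in all cells, were measured beside the muscle actins. Actb ranged from 2167 to 3364 CPM over all libraries, and its LFC lay between -0.13 and 0.16 in the 5 comparisons with no call. Actg1 was at 239 to 298 CPM in water + PBS, 274 to 291 in water + Dex, 196 to 208 in ZnSO4 + PBS and 194 to 233 in ZnSO4 + Dex. For ZnSO4 its LFC was -0.42 ± 0.10 (SE) in PBS mice (adjusted p = 0.0301) and -0.44 ± 0.10 in Dex mice (adjusted p = 0.0235), under the cut-off on size, and the groups did not overlap.

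The 7 smooth muscle genes were also described by their median. The median LFC was 0.35 for ZnSO4 in PBS mice, 0.08 for Dex in water-drinking mice, 0.39 for ZnSO4 in Dex mice, 0.17 for Dex in ZnSO4-drinking mice and 0.46 for ZnSO4 + Dex against water + PBS. The median over all tested genes lay between -0.01 and 0.01 in these comparisons. Without ZnSO4 + PBS replicate 3 the median for ZnSO4 in PBS mice was 0.01, so the value rests on that library. For ZnSO4 in Dex mice the median ranged from 0.26 to 0.48 with single libraries left out. For ZnSO4 + Dex against water + PBS it ranged from 0.33 to 0.57. The median for Dex in water-drinking mice ranged from 0.01 without water + PBS replicate 2 to 0.23 without water + PBS replicate 3, and that for Dex in ZnSO4-drinking mice from 0.01 without ZnSO4 + Dex replicate 2 to 0.45 without ZnSO4 + PBS replicate 3. Without this library and ZnSO4 + Dex replicate 2, which were singled out after their levels were seen, the medians were 0.02, 0.08, 0.26, 0.32 and 0.34 in the same order. The LFC of Actc1 was then 1.26 for ZnSO4 in PBS mice (adjusted p = 0.111) and 1.14 for ZnSO4 + Dex against water + PBS (adjusted p = 0.057), neither a call.

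The 7 genes varied together across libraries. Pearson's r of log2 CPM over the 12 libraries ranged from 0.70 to 0.98 over the 21 pairs, with a median of 0.90, and after subtraction of the group means the median was 0.87. Acta1 had an r of -0.79 to -0.49 with these genes and Myot one of -0.28 to 0.25. The points share library composition and depth, and these values are a description.

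To set Acta1 and Myot against the smooth muscle within each library, the mean log2 CPM of the 7 genes was subtracted from theirs. The smooth muscle mean was 7.00 ± 0.21 log2 CPM in water + PBS, 7.13 ± 0.06 in water + Dex, 7.33 ± 0.47 in ZnSO4 + PBS and 7.50 ± 0.25 in ZnSO4 + Dex (SD, n = 3). Relative to it, Acta1 stood at -1.92, -0.02 and -0.06 in water + PBS and at 0.25, 0.11 and 0.24 in water + Dex. In ZnSO4 + PBS the same difference was -4.39, -4.23 and -6.06, and in ZnSO4 + Dex -4.40, -6.20 and -4.46. The 2 lowest differences came from the 2 libraries with the highest smooth muscle levels, where Acta1 itself was also lowest.

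For Myot the log2 difference was -6.20, -6.38 and -6.30 in water + PBS, and -1.79, -1.80 and -1.73 in water + Dex. It was -9.00, -9.56 and -9.44 in ZnSO4 + PBS and -2.50, -4.09 and -3.13 in ZnSO4 + Dex. The difference between group means on this log2 scale was -4.23 for Acta1 with ZnSO4 in PBS mice and -5.22 in Dex mice. For Myot it was 4.52 with Dex in water-drinking mice and 6.09 in ZnSO4-drinking mice. The last value was 7.33 with a prior count of 0.5 in place of 2, since Myot had almost no reads in ZnSO4 + PBS. With 30 other smooth muscle genes as the reference, none of these values moved by more than the spread within groups.

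**Figure D4:**
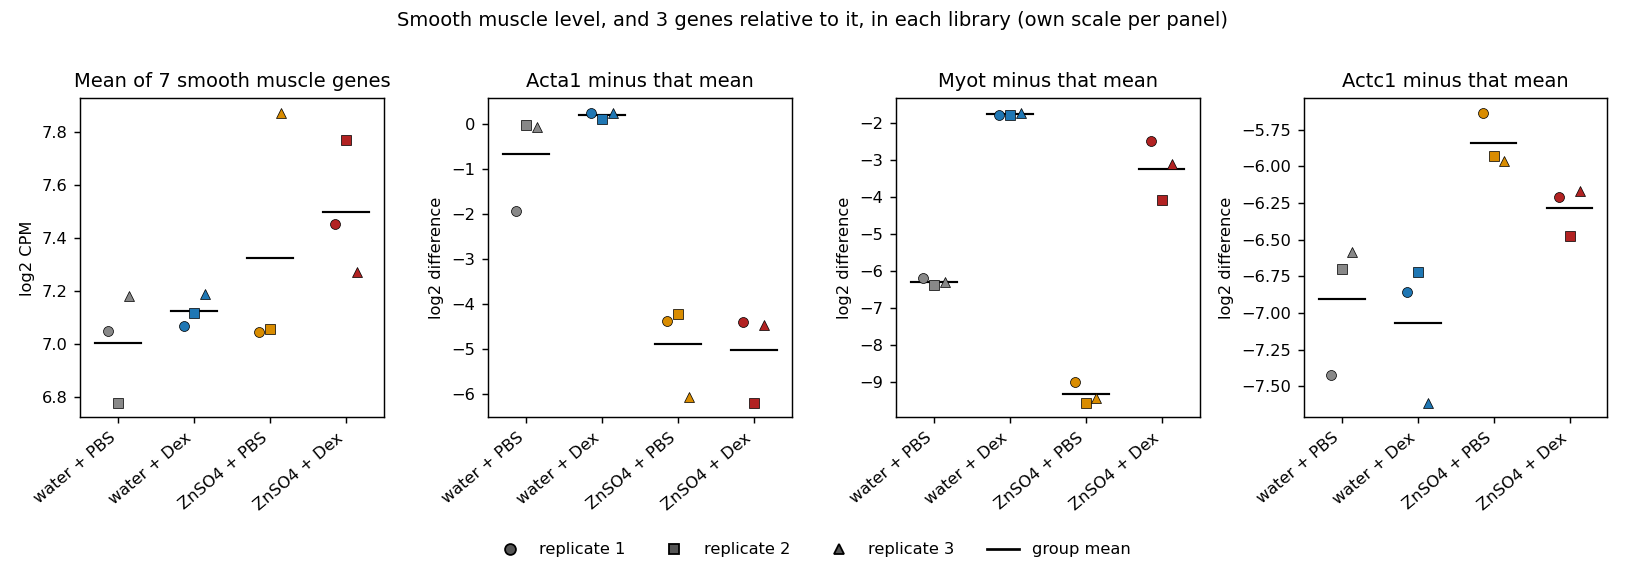
Mean log2 CPM of the 7 smooth muscle genes (left panel), and log2 CPM of Acta1, Myot and Actc1 minus that mean (other panels, each with its own axis), in the 12 libraries by group, with a bar at the group mean. Acta1 minus the mean lies between -6.20 and -4.23 in all ZnSO4-drinking mice, Myot separates the 4 groups, and the smooth muscle mean is highest in 1 library of each ZnSO4 group.

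The other genes of the smooth muscle layer were examined in a list of 30, all of which were tested. None was called for ZnSO4 in PBS mice, for Dex in water-drinking mice, for ZnSO4 in Dex mice or for Dex in ZnSO4-drinking mice, against 0.696% to 3.41% of all genes per direction. Their median LFC there was 0.27, 0.02, 0.36 and 0.08. Between ZnSO4 + Dex and water + PBS the median was 0.40, and 1 of the 30 was called higher, against 5.1% of all genes, Tacr2, a neurokinin receptor of gut smooth muscle, at 2.18 ± 0.494 against 1.05 ± 0.320 CPM (SD, n = 3; LFC 1.04 ± 0.31, adjusted p = 0.0298). In each comparison this median lay within 0.1 of that of the 7 smooth muscle genes.

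Skeletal and cardiac muscle genes were examined because Acta1, Actc1 and Myot are known from striated muscle. Of 35 sarcomere and Z-disc genes, 12 were abundant enough to be tested, 20 had at most 5 reads in any library, and 7, the heavy chains Myh1 and Myh4 among them, had none. The fast troponin C gene Tnnc2, the light chains Myl2 and Myl3 and myoglobin were also at 0, and the creatine kinase Ckm was counted 29 to 74 times. The summed level of the 35 genes was 134 to 136 CPM in water + PBS, 114 to 118 in water + Dex, 119 to 149 in ZnSO4 + PBS and 85.1 to 91.9 in ZnSO4 + Dex. Over all libraries Ldb3 made up the largest part of it, at a mean of 61.1 CPM, followed by Flnc at 23.8 and Cryab at 11.9 CPM. Since 25 of the 35 had a mean under 1 CPM, the sum is not the level of the list as a whole. Acta1 alone exceeded this sum in 4 of the 6 water-drinking mice.

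Ldb3, which encodes a Z-disc protein that binds alpha-actinin, was the sole called gene among the 12 tested ones of that list, against 1.2%, 2.4% and 4.56% of all genes called lower in the 3 comparisons that follow. It was at 85.1, 85.3 and 84.0 CPM in water + PBS, 58.7, 56.1 and 58.1 in water + Dex, 73.8, 66.8 and 73.3 in ZnSO4 + PBS and 34.0, 23.1 and 34.8 in ZnSO4 + Dex. It was lower in ZnSO4 + Dex than in water + Dex (LFC -0.91 ± 0.12, adjusted p = 0.00241), than in ZnSO4 + PBS (-1.22 ± 0.12, adjusted p = 6.85e-05) and than in water + PBS (-1.47 ± 0.13, adjusted p = 1.46e-05). Without ZnSO4 + Dex replicate 2 the LFC for ZnSO4 in Dex mice was -0.74, under the cut-off on size. Of 10 cardiac genes, 5 were tested and none was called in the 5 comparisons, with a lowest adjusted p of 0.0771. With 0.696% to 5.1% of all genes called per direction, no call among 5 genes says little. Of these 5, Pln is also in the list of 30 other smooth muscle genes. The natriuretic peptide genes Nppa and Nppb were at 0 in all libraries.

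Genes controlled by SRF and its cofactors were examined as a list of 21, of which 17 were found under their symbols and 16 were tested. Fhl1, a LIM domain protein of muscle, was called higher for ZnSO4 in PBS mice, at 159 ± 22.3 against 89.4 ± 17.1 CPM (SD, n = 3; LFC 0.83 ± 0.14, adjusted p = 0.00797), and between ZnSO4 + Dex and water + PBS (0.89 ± 0.14, adjusted p = 0.000935). Without water + PBS replicate 2 or ZnSO4 + PBS replicate 3 the first of these fell under the cut-off on size, to 0.70 and 0.71, and without water + PBS replicate 2 the second fell to 0.75. Fhl2, a related coactivator, was called higher for Dex in ZnSO4-drinking mice (LFC 0.84 ± 0.14, adjusted p = 0.00159) and between ZnSO4 + Dex and water + PBS (1.17 ± 0.14, adjusted p = 0.000131). The first of these fell under the cut-off without ZnSO4 + Dex replicate 1 or ZnSO4 + PBS replicate 2, to 0.68 and 0.73. Junb, an immediate early gene, was called lower for Dex in water-drinking mice (LFC -1.14 ± 0.26, adjusted p = 0.0175) and between ZnSO4 + Dex and water + PBS (-1.17 ± 0.26, adjusted p = 0.00833).

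Of these 16 genes, 1 was called higher for ZnSO4 in PBS mice, 1 lower for Dex in water-drinking mice, none for ZnSO4 in Dex mice, 1 higher for Dex in ZnSO4-drinking mice, and 2 higher and 1 lower between ZnSO4 + Dex and water + PBS. Over all tested genes the shares called in these directions were 0.747%, 1.64%, 3.41%, 5.1% and 4.56%, in the order of the calls, and nothing particular to the list is read from counts this small. Srf itself, named after its values were seen, was at 50.4 to 53.7 CPM in water + PBS, 46.3 to 49.5 in water + Dex, 47.9 to 49.5 in ZnSO4 + PBS and 36.8 to 39.1 in ZnSO4 + Dex. Its LFC for ZnSO4 + Dex against water + PBS was -0.46 ± 0.06 (SE, adjusted p = 0.000305), under the cut-off on size.

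**Figure D5:**
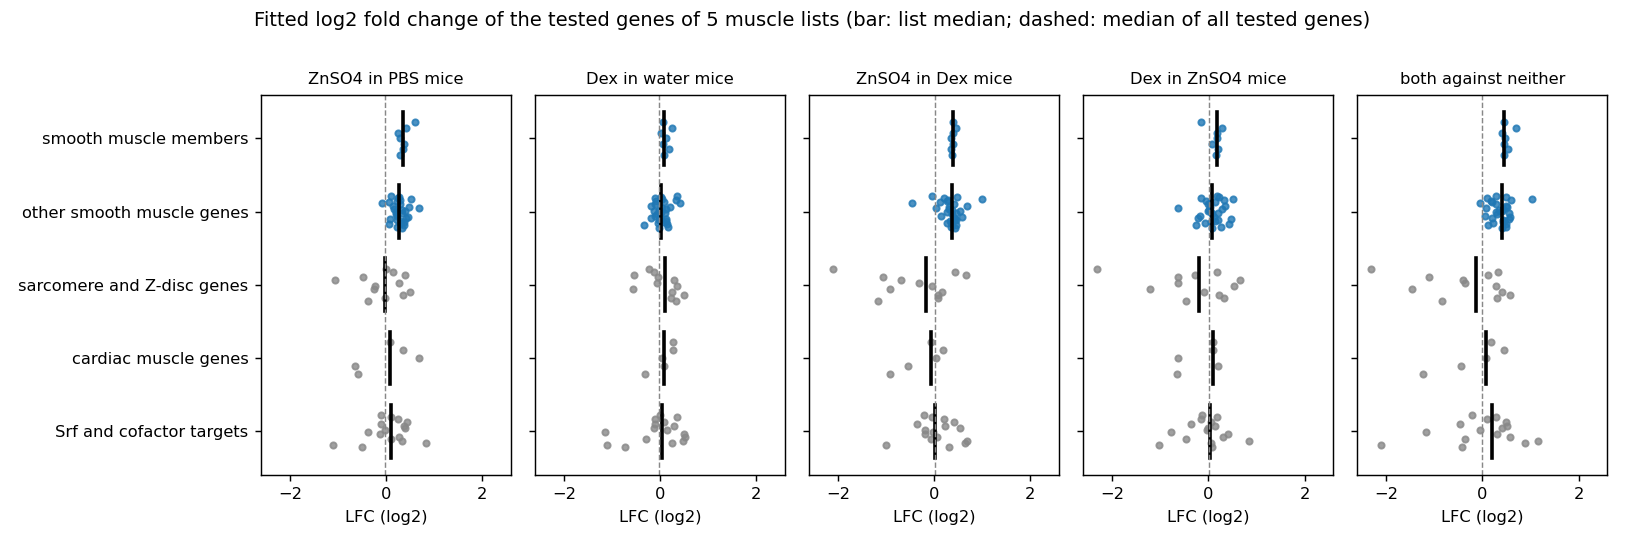
LFC (horizontal axis, log2) of the tested genes of 5 muscle lists in the 5 comparisons, 1 point per gene, with a black bar at the list median and a dashed line at the median of all tested genes. Both smooth muscle lists lie slightly above the dashed line in the ZnSO4 comparisons, with medians of 0.27 to 0.46, and the striated muscle lists scatter around it.

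Genes of other cells of the gut wall were examined beside the smooth muscle genes. The summed level of the 7 smooth muscle genes was 1304 to 1715 CPM in water + PBS, 1641 to 1745 in water + Dex, 1536 to 2759 in ZnSO4 + PBS and 1871 to 2719 in ZnSO4 + Dex. In the same order of groups, 7 fibroblast genes summed to 1014 to 1336, 1043 to 1217, 1072 to 1824 and 1216 to 1742 CPM, and 9 genes of pericytes and vessels to 446 to 480, 469 to 488, 495 to 670 and 521 to 665 CPM. The 6 genes of interstitial cells of Cajal, the pacemaker cells of the gut, summed to 71.8 to 79.3, 87.3 to 91.7, 89.4 to 114 and 113 to 150 CPM, and 11 genes of enteric neurons and glia to 51.3 to 53.4, 52.0 to 64.1, 65.4 to 106 and 89.2 to 93.5 CPM. The sums of enteric neurons and glia and of pericytes and vessels were higher in every ZnSO4-drinking mouse than in any water-drinking mouse, and the fibroblast sums overlapped. Without Ret the sum of the neuron and glia genes overlapped, at 36.4 to 45.1 CPM in water-drinking and 38.0 to 56.4 CPM in ZnSO4-drinking mice, and the sum of the pericyte and vessel genes overlapped without any 1 of 5 genes (Rgs5, Pdgfrb, Kcnj8, Pecam1 or Kdr), so neither separation was shared by the whole list. None of the fibroblast genes was called in any comparison, which says little with 0.696% to 5.1% of all genes called per direction. The part of these cells in the values of the 10 genes was not tested.

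Genes of B cells, adipocytes, mesothelium and epithelium were also summed, and the sums of B cells and adipocytes differed widely between libraries of the same group. The 6 B cell genes summed to 25.8 to 507 CPM in water + PBS, 13.4 to 176 in water + Dex, 10.3 to 382 in ZnSO4 + PBS and 11.2 to 54.2 in ZnSO4 + Dex, and 6 adipocyte genes to 28.6 to 152, 107 to 345, 51.9 to 295 and 32.7 to 222 CPM. The 6 mesothelial genes summed to 1274 to 1592, 1233 to 1403, 1509 to 1922 and 1246 to 1671 CPM. Their median LFC for ZnSO4 in PBS mice was -0.51, with a range of -0.80 to 0.18. The sum, which was not lower there, therefore does not stand for the whole list. None of these 3 lists had a called gene in the 5 comparisons, which says little with 0.696% to 5.1% of all genes called per direction. The 10 epithelial genes summed to 14180 to 22550 CPM over all libraries, and the sums of these 4 lists overlapped between water-drinking and ZnSO4-drinking mice. Their part in the values of Acta1 and Myot was not tested.

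The genes whose log2 CPM followed each pattern most closely over the 12 libraries were sought among 14961 genes with a mean of at least 1 CPM, the 10 genes left out. For Acta1 they were Zfp143 (Pearson's r = 0.98), Slc39a4 (0.97), Meltf (0.97), Nxf7 (0.96) and Aldh4a1 (0.96). Slc39a4, the intestinal zinc importer, was at 226, 287, 29.3 and 25.5 CPM in water + PBS, water + Dex, ZnSO4 + PBS and ZnSO4 + Dex, and Meltf, melanotransferrin, at 6.71, 10.8, 0.110 and 0.0282 CPM (group means). Since these genes were picked for following Acta1, their lower means with ZnSO4 and higher mean in water + Dex come with the choice. Pearson's r leaves out the size of a difference: Zfp143, the closest gene, was at 25.0, 27.4, 18.0 and 18.6 CPM in the same order of groups.

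For Myot the closest genes were Adh6a (r = 0.98), CT025731.4 (0.98), Clint1 (0.98), Prodh (0.98) and Mid1 (0.98). Adh6a, an alcohol dehydrogenase, was at 20.4, 348, 5.48 and 186 CPM and Prodh, proline dehydrogenase, at 49.99, 122, 36.9 and 100 CPM in the same order of groups. Picked for following Myot, each of the closest genes was higher with Dex and lower with ZnSO4 under either injection. The size differed between them, with Clint1 at 280, 451, 231 and 378 CPM. For the smooth muscle mean the closest genes were Flna (0.98), Tpm2 (0.97), Gnao1 (0.97), Abcc9 (0.97) and Maged1 (0.96), and Flna and Tpm2 encode the actin-binding proteins filamin A and tropomyosin.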

How the data were processed

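The authors prepared stranded single-end libraries from ileum RNA, mapped the reads to mm10 with HISAT2 2.0.4 and ran featureCounts without multimapping reads. What they deposited is a table of raw read counts, 1 row for each of 54838 genes, and 24517 rows are 0 in all 12 libraries. The annotation release and the strand setting of the counting are not given in the sources used here. The 12 libraries were grouped by their labels as 3 biological replicates of each of 4 groups. Replicates of a group differed by far more than sampling noise (chi-square per degree of freedom 8.3 to 45.3), so none was counted as a repeat.

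Symbols were matched to Ensembl identifiers for 54723 genes. The members and gene lists were chosen with earlier results of these data known. Genes were filtered with filterByExpr (minimum count 10), scaled by TMM and fitted in 1 model of 4 group means with edgeR 4.0.16 (glmQLFit and glmQLFTest, R 4.3.3), and p-values were adjusted by Benjamini-Hochberg over 15938 genes. No p is given for Acta1 and Myot, which were singled out from these contrasts. On simulated counts with 200 genes changed by 2 on the log2 scale, the fit recovered 93% for ZnSO4 in PBS mice and 95% for Dex in water mice, with 7 and 8 of the unchanged genes called. The changed genes were drawn from those with an average log2 CPM above 1, so recovery of lower genes or smaller changes was not tested. CPM are counts per 1000000 reads of effective library size, log2 CPM has a prior count of 2, and CPM per kb divides by the exonic length in GENCODE M21. SE are the absolute LFC divided by the root of F.

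The genes named are the 10 members, the called genes of the other lists (at most 4 of a list, mean of at least 1 CPM) and the 5 genes most like Acta1, Myot and the smooth muscle mean. Outside this rule, Actb, Actg1, Srf, Fabp6, Fabp2, Ckm, the striated muscle genes listed at 0 and the genes that carry a summed marker level were named after their values were seen. Alternatives were DESeq2 1.42.0, RLE and upper-quartile scaling, other filters, a replicate block, fits of the compared groups alone, the smooth muscle level as a covariate, another prior count, another reference list, and leaving out each library. Sequences are from RefSeq and GENCODE, and none is shown for genes without an entry.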

Additional observations from a re-analysis of the deposited data

How the results depend on the processing

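Acta1 and Myot kept their direction in the ZnSO4 comparisons, and Myot in the Dex comparisons, under every alternative that could be fitted, which the choice of these genes favours. Of the 10 genes, 1 was called for ZnSO4 in Dex mice, and 2 were with DESeq2, with no filter on low counts, with the replicate block or without ZnSO4 + Dex replicate 1 (1 to 2 over the left-out libraries), the second being Myot. Of all 15938 genes, 111 were called higher and 192 lower in the main fit, and 110 and 227 with DESeq2. The counts were 120 and 231 of 30321 with no filter and 95 and 189 of 15938 with the block. Without ZnSO4 + Dex replicate 1 they were 80 and 145 of 16286. With at least 10 counts in every library, neither Myot nor Actc1 was tested, since the filter removed them. Of the 10 genes, 1 was then called for ZnSO4 in PBS mice, 0 for Dex in water mice, 0 for Dex in ZnSO4 mice and 1 for both against neither. Of the 13666 genes then tested, 111 were called higher and 133 lower, 366 and 214, 439 and 333, and 659 and 597, in the same order. With a prior count of 0.5, Myot relative to smooth muscle moved to -4.17 for ZnSO4 in PBS mice and 7.33 for Dex in ZnSO4 mice, from -3.04 and 6.09.

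The median LFC of the smooth muscle genes for ZnSO4 in PBS mice ranged from 0.01 (0.0112, without ZnSO4 + PBS replicate 3) to 0.53 over the left-out libraries, and was 0.02 without the pair of libraries left out together. With single libraries left out, the LFC of Acta1 for Dex in ZnSO4 mice ranged from -0.20 to 0.45 and that of Actc1 for Dex in water mice from -0.31 to 0.27, so neither has a settled sign. The call of Actc1 for ZnSO4 in PBS mice was lost with only the compared groups (adjusted p = 0.0831) and with the replicate block (adjusted p = 0.051), while its LFC was 1.52 and 1.51, against 1.51. Replicate numbers did not pair the samples: residual correlations of same-numbered libraries had a median of -0.0557 over 18 pairs, against 0.0225 over 36 others. Actc1 (6 to 44 reads a library) and Myot in ZnSO4 + PBS are limited by depth. The cause of these shifts was not tested except where stated.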

Other observations

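Among the marker genes of other cells of the gut wall, a few changed by drinking water or injection. Ret, the GDNF receptor of enteric neurons, was higher after ZnSO4, at 39.2 ± 11.03 against 15.7 ± 0.890 CPM in PBS mice (SD, n = 3; LFC 1.31 ± 0.18, adjusted p = 0.00273) and 44.9 ± 1.86 against 16.3 ± 2.41 CPM in Dex mice (1.46 ± 0.18, adjusted p = 0.00156). It was the sole called gene of the 11 of its list in each case, against 0.747% and 0.696% of all tested genes called higher. Kit, the receptor that marks interstitial cells of Cajal, rose from 43.4 ± 2.71 CPM in water + PBS to 84.4 ± 11.5 CPM in ZnSO4 + Dex (LFC 0.96 ± 0.11, adjusted p = 0.000121), and Gjc1, a gap junction gene, with it (0.87 ± 0.16, adjusted p = 0.00257). Between these groups 3 of the 6 genes of that list were called higher, against 5.1% of all tested genes.

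Cspg4, the pericyte proteoglycan NG2, was higher after Dex in water-drinking mice (LFC 1.01 ± 0.21, adjusted p = 0.00995) and in ZnSO4-drinking mice (0.80 ± 0.20, adjusted p = 0.0222), and Kdr, the endothelial VEGF receptor, was lower in both (-0.96 ± 0.12, adjusted p = 0.000372, and -0.95 ± 0.12, adjusted p = 0.000304). Kcnj8, a potassium channel of pericytes, was lower after Dex in ZnSO4-drinking mice (-0.85 ± 0.20, adjusted p = 0.0147). Of the 9 genes of this list, 1 was called higher and 1 lower after Dex in water-drinking mice. The shares of all tested genes were 2.79% and 1.64%. In ZnSO4-drinking mice 1 of the 9 was called higher and 2 lower, against 3.41% and 2.4% of all tested genes. Of the epithelial genes, the goblet cell mucin Muc2 was higher after ZnSO4 in PBS mice (0.88 ± 0.20, adjusted p = 0.033) and in Dex mice (0.83 ± 0.20, adjusted p = 0.0417), and the intestinal transcription factor Cdx2 was lower after Dex in water-drinking (-0.82 ± 0.09, adjusted p = 0.000117) and ZnSO4-drinking mice (-0.99 ± 0.09, adjusted p = 2.73e-05). Each was the sole called gene of the 10 there, against 0.747%, 0.696%, 1.64% and 2.4% of all tested genes called in that direction. The median LFC of the 10 for ZnSO4 was 0.008 in PBS mice (range -0.26 to 0.88). In Dex mice it was -0.14 (range -0.69 to 0.83).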
